A study of Homo sapiens with 9 samples.

Results

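AQP9 is a channel protein of the aquaglyceroporin branch of the aquaporin family, and its transcript was followed here across 3 treatments of THP-1 cells. It was found as every row of the array table annotated with the symbol AQP9, which gave 1 row (Entrez gene 366) and 1 gene of the 14884 named. It was singled out because its level stood far from vehicle with both drugs, so its differences from vehicle are given as a description and support no test. THP-1 is a human monocytic leukaemia line, and all 9 cultures had been turned into macrophage-like cells, called M0, with the phorbol ester PMA. The groups were osimertinib at 100 nM (a lung cancer drug that binds mutant EGFR irreversibly), cisplatin at 0.5 µM (a platinum compound that links DNA strands) and vehicle, each for 16 h and each with 3 replicates that the labels call biological and independent. A single line stands for the macrophage here, and neither the PMA dose nor the nature of the vehicle is stated in the labels.

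Aquaporins are membrane pores that let water follow osmotic gradients. The aquaglyceroporins, of which AQP3, AQP7, AQP9 and AQP10 are the human members, also pass glycerol. AQP9 has an unusually broad choice of solutes that includes urea, lactate and other monocarboxylates, arsenite and hydrogen peroxide. It is best known as the glycerol entry route of hepatocytes, where glycerol is used for glucose and triglyceride synthesis, and as the main aquaporin of neutrophils and other leukocytes, where it has been tied to cell shape and migration.

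The upstream sequence of AQP9 is shown as the stretch of DNA before an annotated start of the gene. Which start these cells used was not tested. The gene lies on chromosome 15. The RefSeq promoter table holds 2 windows for it, and the 250 bases before the first start, at chr15:58137919-58138168 of GRCh38.p14 on the plus strand, read as follows, with capitals for matches to the C/EBP motif TTNNGNAA on either strand.
AQP9: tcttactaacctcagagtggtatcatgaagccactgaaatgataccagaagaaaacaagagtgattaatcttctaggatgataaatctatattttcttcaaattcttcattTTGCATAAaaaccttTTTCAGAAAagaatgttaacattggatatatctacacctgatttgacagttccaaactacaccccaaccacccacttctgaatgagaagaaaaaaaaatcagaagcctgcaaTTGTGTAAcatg

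The window is poor in G and C, at 33.6% against a median of 58.0% over the promoters of 27305 genes, and 4.15% of those promoters are poorer. It held 4 matches to TTNNGNAA, the motif of the C/EBP factors of myeloid and liver cells, which begin 139, 124, 123 and 12 bases before the start. The middle pair overlap each other, and 33.6% of all 27305 windows of this length hold at least 1 such match. The share with 4 or more was not counted, and no share of windows given here is matched for G and C content. On either strand there was no match to TGANTCA (AP-1, in 6.6% of windows), GAANNTTC (heat shock element, 5.85%), TGATGNAA (ATF4, 3.19%), TGACNNNGC (antioxidant response element, 11%), GAGGAAG (PU.1, 11%) or the NF-kB motif (53.7%). A match describes letters in this window and was not tested for binding, and the other window of the gene was not searched.

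AQP9 was 6.58-fold higher with osimertinib and 6.19-fold higher with cisplatin than with vehicle, and the drugs stood close to each other. On the deposited log2 scale its level was 8.05, 7.97 and 8.07 on the osimertinib arrays. The cisplatin arrays held 7.69, 8.05 and 8.09, and the vehicle arrays held 5.09, 5.43 and 5.42, in the order of replicates 1 to 3. All 6 drug arrays lay above all 3 vehicle arrays, with a gap between the lowest drug array and the highest vehicle array of 2.26 log2 units for cisplatin and 2.55 for osimertinib. Of all 7442 tested genes, 44.1% had osimertinib and vehicle arrays that did not overlap, 24.6% with osimertinib higher. For cisplatin and vehicle it was 42.3%, 22.5% with cisplatin higher. AQP9 was picked for this difference, so nothing is read from its place among them.

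The group means were 8.03 ± 0.049 with osimertinib, 7.94 ± 0.22 with cisplatin and 5.31 ± 0.19 with vehicle (SD, n = 3 each). The fitted log2 difference from vehicle was 2.72 with osimertinib and 2.63 with cisplatin, each with a moderated SE of 0.11. Ordered by signed difference from the largest rise down, this was rank 2 of 7442 tested genes in both comparisons. Rank 1 was the chemokine gene CCL5, which attracts T cells and monocytes. The comparisons share the 3 vehicle arrays, so that the likeness of their values is partly built in. All 9 arrays had AQP9 above the level limit of 4.28 that genes had to reach on average to be tested, so the vehicle level was not at the lower edge of the tested range. Because RNA was taken from whole cultures, more AQP9 RNA per cell and more cells that carry it cannot be told apart.

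**Figure D1:**
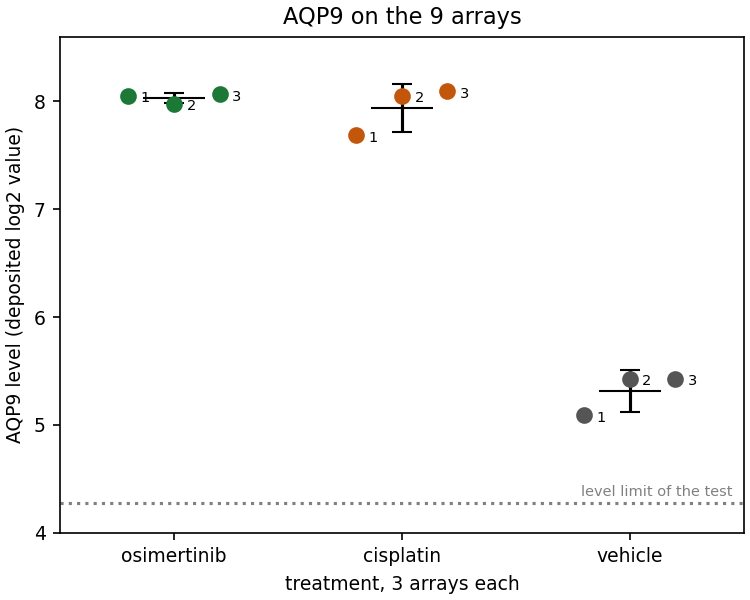
AQP9 level (deposited log2 value, vertical axis) on each of the 9 arrays, by treatment; numbers are replicates, bars are the mean ± SD of 3 arrays and the dotted line is the level limit of the test. The osimertinib arrays lie between 7.97 and 8.07, the cisplatin arrays between 7.69 and 8.09 and the vehicle arrays between 5.09 and 5.43.

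The direct comparison of the drugs asked whether AQP9 differed between osimertinib and cisplatin. AQP9 was not picked for this contrast, but it was picked for lying far from vehicle with both drugs. That choice used the same drug arrays and favours a small difference between them, so the test is not independent of it. The difference was 0.09 log2 units (SE 0.11), a 1.06-fold higher mean with osimertinib, and was not called (limma, adjusted p = 0.841 over 7442 genes). Its 95% interval ran from -0.16 to 0.33 log2 units, or from 0.897-fold to 1.26-fold, so these arrays leave room for a modest difference in either direction. The arrays overlapped, with osimertinib higher in 5 of 9 pairs of arrays, and the exact two-sided permutation test gave p = 0.80, where the smallest p that 3 against 3 arrays allow is 0.10. Among all 7442 genes 1.75% were called in this contrast, and 14.3% had arrays that did not overlap, 7.44% with osimertinib higher. In the order of levels, osimertinib and cisplatin are thus neighbours that did not differ beyond their spread, with vehicle far below both.

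The small difference between the drugs rested on 1 array. Cisplatin replicate 1 lay 0.26 log2 units below its group mean, while the other cisplatin arrays were 0.11 and 0.15 above it. Without cisplatin replicate 1 the difference turned to -0.04 (limma, adjusted p = 0.949), and with any other array left out it was between 0.07 and 0.16. That array was the lowest of its group in 65.0% of the 7442 tested genes, with a mean deviation of -0.07 over those genes, and the part of this in the AQP9 value was not tested. The vehicle group had a low array too, replicate 1 at 0.22 below the group mean, while the osimertinib arrays stayed within 0.06 of theirs. Over the 3 groups the pooled SD of AQP9 was 0.17, against a median of 0.13 over the tested genes, and 75.5% of those genes had a smaller one.

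**Figure D2:**
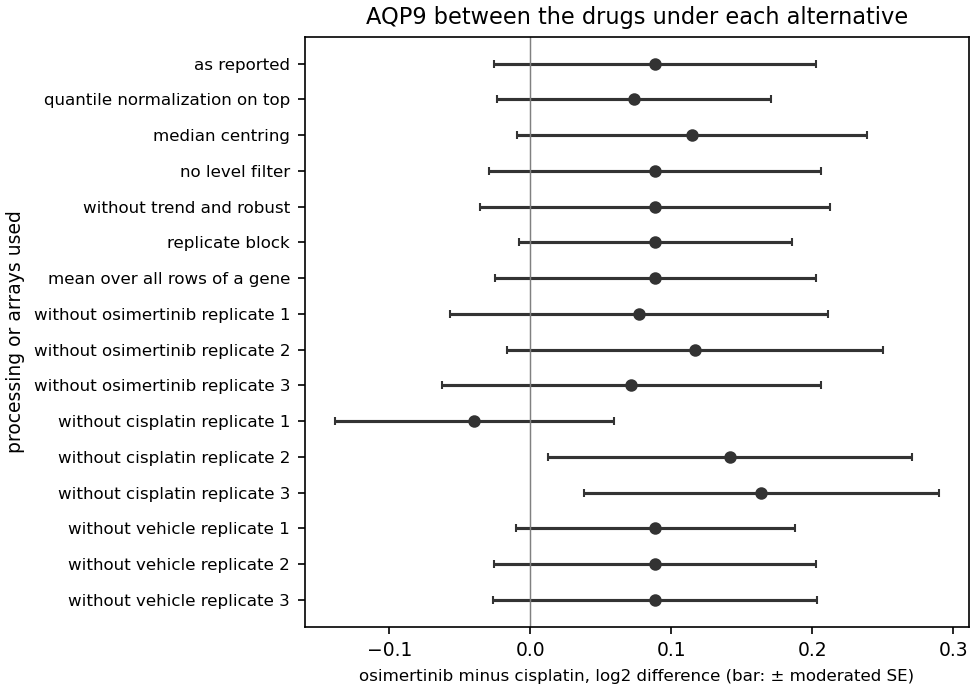
AQP9 difference, osimertinib minus cisplatin (log2, horizontal axis), under the reported processing and each alternative; points are fitted differences and bars ± the moderated SE. The values lie between 0.07 and 0.16 except without cisplatin replicate 1, where the value is -0.04.

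Of 13 listed aquaporins besides AQP9, 12 were named in the table and 3 reached the level limit: AQP3, AQP2 and AQP12A. By limma 0 of these 3 were called with osimertinib against vehicle, 0 with cisplatin against vehicle and 0 between the drugs. Over all 7442 genes 30.6%, 31.0% and 1.75% were called in these contrasts, and with 3 genes tested a count of 0 says little against such shares. At an unadjusted p under 0.05 the counts were 0, 1 and 2 of 3. The share of all genes at that threshold is not given here, so nothing is read from these counts. Without the level filter again 0 of the 12 was called. AQP12A and AQP12B are near-identical copies that the array may not part.

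AQP3, the aquaglyceroporin of skin and kidney that also passes hydrogen peroxide, had levels of 5.03, 4.47 and 5.06 with osimertinib, 5.06, 5.76 and 5.49 with cisplatin, and 5.06, 5.06 and 5.01 with vehicle. The drug arrays spread on both sides of the vehicle arrays. Vehicle replicates 1 and 2, osimertinib replicate 3 and cisplatin replicate 1 hold the same value, 5.06296, so the vehicle arrays are close partly through tied values. The log2 difference from vehicle was -0.19 with osimertinib (SE 0.18, adjusted p = 0.463) and 0.39 with cisplatin (SE 0.18, adjusted p = 0.114, limma). Between the drugs it was -0.58 (adjusted p = 0.157), and without cisplatin replicate 1 it was -0.77 with an adjusted p of 0.0442. AQP7, which releases glycerol from fat cells, and AQP10, a glycerol channel of gut and fat, stayed below the level limit on all arrays, at 2.71 to 3.52 and at 3.29 to 3.82. AQP1, the water channel of red cells and endothelium, stayed at 3.31 to 3.92.

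**Figure D3:**
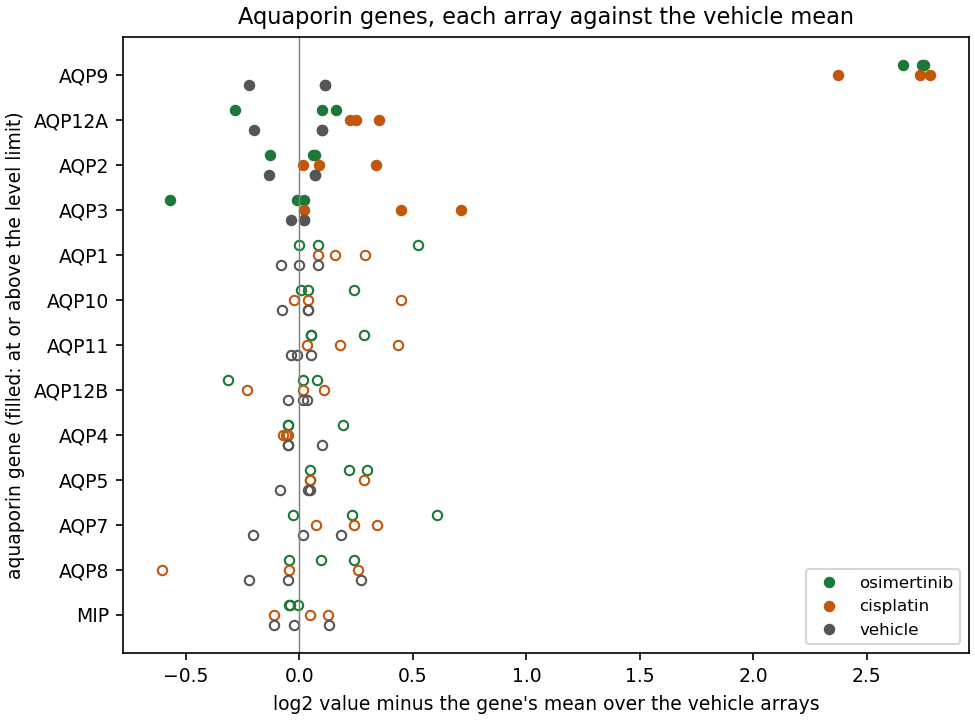
Each of 13 aquaporin genes with a row (vertical axis) on the 9 arrays, as its log2 value minus its own mean over the vehicle arrays (horizontal axis); colours are the treatments and filled points mark genes at or above the level limit. The drug arrays of AQP9 stand 2.26 or more above its vehicle arrays and, for 9 of the other 12, the points are open, below the level limit.

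Of 40 listed genes that make, store or break down glycerol lipids, 27 were named and 22 tested. With osimertinib 8 of 22 rose and 1 fell (40.9% called, against 30.6% of all 7442 genes, of which 16.9% were higher and 13.7% lower; median log2 difference 0.13, against 0.04 for all). With cisplatin 5 rose and 2 fell (31.8% called, against 31.0%, of which 16.5% were higher and 14.5% lower; median 0.06, against 0.03). Between the drugs 0 were called by limma, against 1.75% of all genes. At an unadjusted limma p under 0.05 there were 3, but the share of all genes at that threshold is not given here, so nothing is read from it. Glycerol kinase GK, which traps glycerol inside the cell, and the lipases LIPE and LIPC were not named in the table and are not analysed here.

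The droplet coat genes PLIN2 and PLIN3 rose with both drugs. PLIN2, a droplet coat protein of macrophages, was at 6.41, 6.40 and 6.28 with osimertinib, 6.18, 6.23 and 6.18 with cisplatin, and 5.46, 5.80 and 5.78 with vehicle. The groups did not overlap, and PLIN2 was 1.60-fold higher with osimertinib (log2 difference 0.68, SE 0.10, adjusted p = 0.000207) and 1.43-fold higher with cisplatin (0.51, SE 0.10, adjusted p = 0.00176, limma). PLIN3, a coat of small droplets, averaged 6.80 ± 0.086 with osimertinib, 6.87 ± 0.17 with cisplatin and 6.23 ± 0.046 with vehicle (SD, n = 3 each), a difference from vehicle of 0.58 with osimertinib (adjusted p = 0.000401) and 0.64 with cisplatin (adjusted p = 0.000185, limma). LPL, the lipase that frees fatty acids from lipoprotein triglycerides, rose by 0.47 with osimertinib (adjusted p = 3.58e-06) and by 0.44 with cisplatin (adjusted p = 6.61e-06, limma). Its means were 9.79 ± 0.0066 with osimertinib, 9.76 ± 0.038 with cisplatin and 9.31 ± 0.047 with vehicle (SD, n = 3 each), and no drug array overlapped a vehicle array.

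Triglyceride enzymes gave mixed results. DGAT2, which makes triglyceride, rose with osimertinib (0.32, adjusted p = 0.039) and with cisplatin (0.62, adjusted p = 0.000707, limma). PNPLA2, which starts triglyceride breakdown, rose by 0.39 with osimertinib (adjusted p = 0.0137) and by 0.42 with cisplatin (adjusted p = 0.0096). PNPLA3, a related droplet enzyme, rose with osimertinib (0.43, adjusted p = 0.00576), and its difference with cisplatin was 0.01 (adjusted p = 0.938). DGAT1, the other enzyme of the last step of triglyceride synthesis, had differences of -0.03 with osimertinib (adjusted p = 0.740) and -0.06 with cisplatin (adjusted p = 0.524). MGLL, which ends triglyceride breakdown, had 0.02 (adjusted p = 0.905) and 0.04 (adjusted p = 0.772). Neither was called. Between the drugs PNPLA3 differed by 0.42, which missed the threshold (adjusted p = 0.0615).

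The genes that fell were LPIN2 and HILPDA. LPIN2, a lipin phosphatase on the route to triglyceride, fell by 0.46 with osimertinib (adjusted p = 0.00123) and by 0.52 with cisplatin (adjusted p = 0.000468, limma). HILPDA, which restrains PNPLA2, fell by 0.34 with cisplatin (adjusted p = 0.0231), and its difference with osimertinib was -0.25 (adjusted p = 0.0863, limma). The count with osimertinib also holds GPD2, the mitochondrial glycerol-phosphate dehydrogenase, at 0.20 (adjusted p = 0.0491), and ABHD5, the activator of PNPLA2, at 0.27 (adjusted p = 0.0451), both outside the rule and named after their values were seen.

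Several of these calls did not hold under all 15 alternative settings. For osimertinib, DGAT2 lost its call in 9 of them, GPD2 in 10 and ABHD5 in 10, with limma adjusted p-values of up to 0.130 for DGAT2 without vehicle replicate 3, and without vehicle replicate 2 of up to 0.197 for GPD2 and 0.194 for ABHD5. PNPLA2 lost its osimertinib call without vehicle replicate 1 (0.0563) and without osimertinib replicate 1 (0.0511). HILPDA lost its cisplatin call without cisplatin replicate 3 (0.109), without vehicle replicate 3 (0.0991), with quantile normalization (0.0641) and with median centring (0.0553).

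Of 37 genes that handle other solutes of AQP9, 10 were named and 8 tested, and most of the carriers of urea, lactate and nucleosides are not analysed here. With osimertinib 4 of 8 rose and 0 fell (50% called, against 30.6% of all genes), and with cisplatin 2 rose and 0 fell (25%, against 31.0%). Of all genes 16.9% were called higher and 13.7% lower with osimertinib, and 16.5% and 14.5% with cisplatin. With 8 genes tested, these counts say little. Between the drugs 0 were called by limma, against 1.75% of all genes. At an unadjusted limma p under 0.05 there were 2, again without the share of all genes, so nothing is read from it. The medians were 0.13 with osimertinib and 0.11 with cisplatin, against 0.04 and 0.03 for all genes. CAT and PRDX1 were called with both drugs.

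CAT, the catalase of peroxisomes, was at 6.93, 6.83 and 6.94 with osimertinib, 6.59, 6.78 and 6.70 with cisplatin, and 5.92, 5.83 and 6.02 with vehicle. No drug array overlapped a vehicle array, and CAT was 1.97-fold higher with osimertinib (log2 difference 0.98, SE 0.085, adjusted p = 2.81e-06) and 1.70-fold higher with cisplatin (0.77, SE 0.085, adjusted p = 2.13e-05, limma). PRDX1, a cytosolic peroxiredoxin, rose by 0.41 with osimertinib (adjusted p = 0.00199) and by 0.24 with cisplatin (adjusted p = 0.0418). PRDX3, its mitochondrial relative, rose by 0.28 with osimertinib (adjusted p = 0.025), and its cisplatin difference was 0.11 (adjusted p = 0.357). PRDX2 and PRDX6, other peroxiredoxins, were not called, at -0.04 and 0.03 with osimertinib and -0.09 and -0.08 with cisplatin. BSG, a partner of the lactate carriers, rose by 0.24 with osimertinib (adjusted p = 0.00321), and its cisplatin difference was 0.13 (adjusted p = 0.0818). The cisplatin call of PRDX1 was lost in 9 of the 15 alternatives (limma adjusted p up to 0.158, without cisplatin replicate 3). The osimertinib call of PRDX3 was lost without osimertinib replicate 1 (0.101), without vehicle replicate 1 (0.0706), without vehicle replicate 2 (0.0745) and without the level filter (0.0518).

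Of 24 genes of cell volume control, 6 were named and 5 tested. With osimertinib 0 of 5 rose and 2 fell, and with cisplatin 0 rose and 2 fell (40% called in each, against 30.6% and 31.0% of all genes). The medians were -0.20 and -0.20, against 0.04 and 0.03. Of all genes 16.9% were called higher and 13.7% lower with osimertinib, and 16.5% and 14.5% with cisplatin. With 5 genes tested, these counts say little. WNK1, a kinase that senses chloride and osmotic stress, was at 8.27, 8.27 and 8.26 with osimertinib, 8.05, 8.13 and 8.22 with cisplatin, and 8.43, 8.51 and 8.47 with vehicle. It lay below vehicle on every drug array, by 0.20 with osimertinib (adjusted p = 0.0182) and by 0.33 with cisplatin (adjusted p = 0.000706, limma). OXSR1, a kinase that WNK1 acts on, fell by 0.32 with osimertinib (adjusted p = 0.00778), and its cisplatin difference was -0.20 (adjusted p = 0.0724). PIEZO1, a stretch-gated channel, fell by 0.39 with cisplatin (adjusted p = 0.00981), and its osimertinib difference was -0.22 (adjusted p = 0.123). The osimertinib call of WNK1 was lost without vehicle replicate 2 (limma adjusted p = 0.0703), with median centring (0.160) and without trend and robust fitting (0.0645).

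Over the 4 lists together, 38 genes were tested. With osimertinib 12 rose and 3 fell, and with cisplatin 7 rose and 4 fell. A further quantile normalization moved the split to 14 and 4 with osimertinib and to 11 and 3 with cisplatin, and median centring gave 9 and 3 with cisplatin. Over all tested genes the split with cisplatin was 1227 higher and 1081 lower, and quantile normalization on top moved it to 1968 and 975. With osimertinib it was 1255 and 1022, and it moved to 2005 and 932 with quantile normalization and to 1536 and 734 with median centring.

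**Figure D4:**
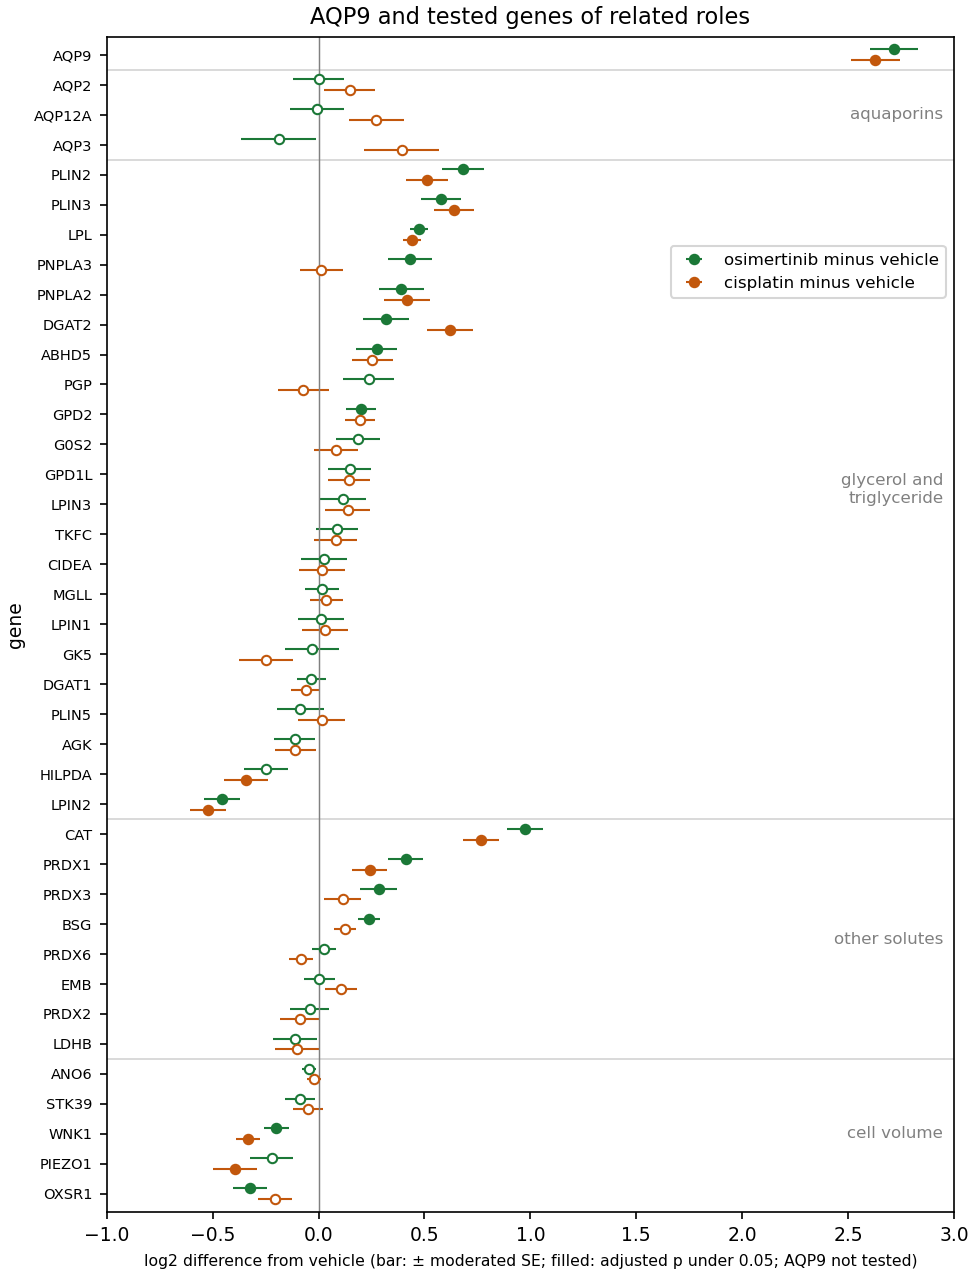
Log2 difference from vehicle (horizontal axis) of AQP9 and the 38 tested genes of the 4 lists (vertical axis), for osimertinib and cisplatin; bars are ± the moderated SE, filled points have an adjusted p under 0.05, and AQP9, drawn filled, was not tested. AQP9 lies at 2.72 and 2.63, and the next highest value is that of CAT at 0.98 with osimertinib.

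The genes whose pattern was most like that of AQP9 were sought among the other 7441 tested genes by Pearson's correlation over the 9 arrays, given as a description. The groups set most of this likeness, and 208 genes reached an r of 0.95 or more and 91 an equally strong negative one. The 8 highest were CTSZ, a lysosomal cathepsin (r = 0.998), the chaperone genes HSPH1, HSPA1B and HSPA1A, the membrane protein gene TMEM164, the chemokine gene CCL22, the arrestin-like ARRDC4 and the phosphatase gene DUSP1 (all at 0.992 or 0.993). HSPA1A and HSPA1B are near-identical copies that the array may not part. Their deviations from the group means correlated with those of AQP9 at 0.31 for HSPA1B to 0.84 for CTSZ over the same 9 arrays.

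Most of these genes moved less than AQP9 in size. CTSZ was at 7.63, 7.71 and 7.63 with osimertinib, 7.53, 7.66 and 7.66 with cisplatin, and 6.54, 6.67 and 6.67 with vehicle, a log2 difference of 1.03 with osimertinib and 0.99 with cisplatin. Like AQP9, CTSZ had its lowest drug array in cisplatin replicate 1 and its lowest vehicle array in replicate 1. Of all tested genes, 65.0% were lowest of the cisplatin group on its replicate 1 and 39.8% lowest of the vehicle group on its replicate 1. CTSZ was picked by its correlation over these arrays, so nothing is read from this likeness. By Euclidean distance, which takes size into account, the nearest were CCL22, a ligand of the receptor CCR4 (distance 0.754), DUSP1, which switches off MAP kinases (1.65), CCL5 (2.44), BPI, an antibacterial protein (2.84), and the Wnt receptor FZD8 (2.86). CCL22 was at 9.83, 9.76 and 9.80 with osimertinib, 9.84, 9.98 and 9.95 with cisplatin, and 7.41, 7.35 and 7.54 with vehicle, a difference of 2.36 with osimertinib and 2.49 with cisplatin.

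**Figure D5:**
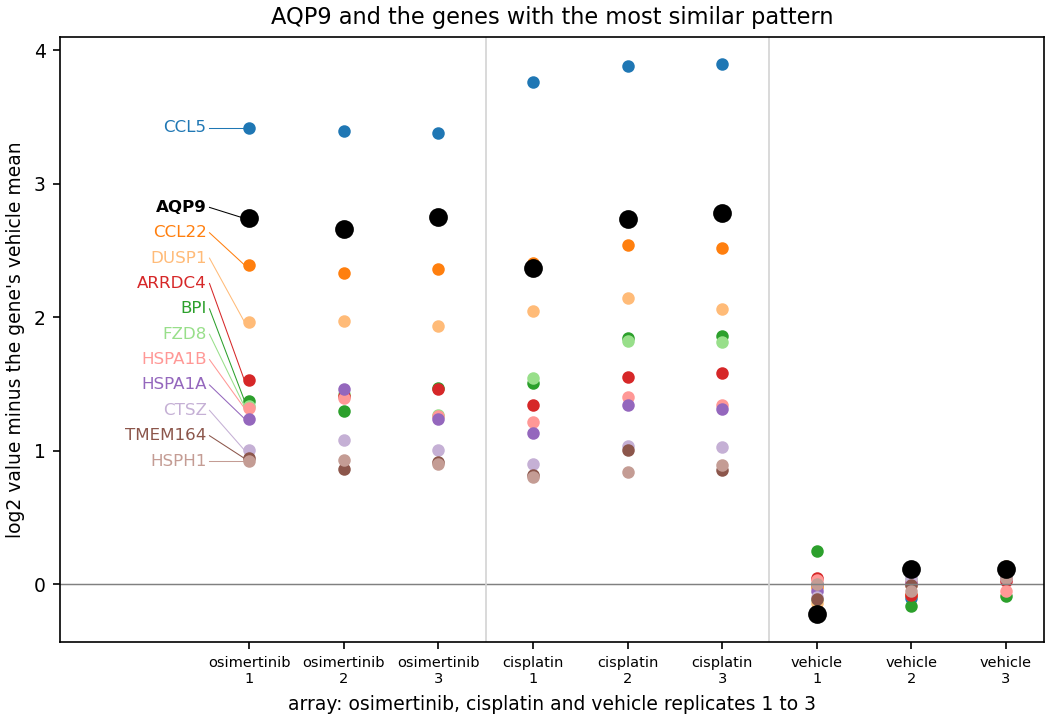
AQP9 and the 11 genes chosen by correlation or distance, on each of the 9 arrays (horizontal axis), as the log2 value minus the gene's own vehicle mean (vertical axis). AQP9 (large points) lies between CCL5 and CCL22 on all arrays of both drugs except cisplatin replicate 1, where it lies just below CCL22.

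The tested neighbours of AQP9 on chromosome 15 were LINC00926, ADAM10 and RNF111, and none was called higher with both drugs. Over all 7442 genes 16.9% were called higher with osimertinib and 16.5% with cisplatin, so for so few genes this says little. Before AQP9 in the RefSeq table the nearest genes with a named row were CGNL1 and the long non-coding LINC00926. CGNL1, a cell junction protein gene, was below the level limit at 3.49 to 4.04. LINC00926 averaged 4.22 ± 0.13 with osimertinib, 4.23 ± 0.13 with cisplatin and 4.72 ± 0.16 with vehicle (SD, n = 3 each). It was lower by 0.50 with osimertinib (adjusted p = 0.00731) and by 0.50 with cisplatin (adjusted p = 0.00785, limma). Both drug means lay below the level limit of 4.28, so LINC00926 was tested only through its higher vehicle level. The limit favours such a fall, and nothing is read from it. After AQP9 came ADAM10, a membrane sheddase, with 0.18 for osimertinib (adjusted p = 0.025) and -0.01 for cisplatin (adjusted p = 0.949, limma). The ubiquitin ligase gene RNF111 had -0.24 with osimertinib (adjusted p = 0.0543) and -0.29 with cisplatin (adjusted p = 0.0257, limma). Other genes between these and AQP9 had no named row. The RefSeq table places 6 pseudogenes of mitochondrial genes inside the AQP9 gene, and whether probes of the AQP9 row touch them was not tested.

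The macrophage label was set against marker genes. Of 20 macrophage markers 11 were named and 8 reached the level limit, among them CD68, CSF1R, SPI1 and TYROBP, while LYZ, CD163 and MARCO did not. The mean log2 level of the 11 named on an array was 5.96 to 6.09 with osimertinib, 6.02 to 6.17 with cisplatin and 5.94 to 5.98 with vehicle. By limma 2 of the 8 were called with each drug, CD68 and CSF1R, while 30.6% of all 7442 genes were called with osimertinib and 31.0% with cisplatin. CD68 and CSF1R rose by 0.30 and 0.29 with osimertinib and by 0.51 and 0.50 with cisplatin. SPI1, CD14, TYROBP, MSR1, LAMP1 and CTSB were not called with either drug. Monocyte markers, of which 4 of 11 named reached the limit, averaged 3.90 to 3.98 with osimertinib, 3.99 to 4.10 with cisplatin and 3.83 to 3.89 with vehicle. Among them S100A9, a calcium-binding protein of myeloid cells, fell by 0.33 with osimertinib (adjusted p = 0.0486, limma). It rose by 0.50 with cisplatin (adjusted p = 0.00539), a difference of -0.83 between the drugs (adjusted p = 0.00201, limma). The osimertinib mean of S100A9, 4.26, lay below the level limit of 4.28, so it was tested through its higher cisplatin and vehicle levels. Its osimertinib call lay just under the threshold of 0.05 and was not checked under the alternative settings, so little is read from this fall. CD36, a scavenger receptor, fell by 0.26 with cisplatin (adjusted p = 0.00882), and its osimertinib difference was -0.07 (adjusted p = 0.480). The part of either list in the AQP9 value was not tested. The marker lists of neutrophils and hepatocytes, cells rich in AQP9, were low on all 9 arrays. Of 11 named neutrophil markers 1, AZU1, reached the limit, and the list averaged 3.18 to 3.38 with osimertinib, 3.25 to 3.36 with cisplatin and 3.13 to 3.28 with vehicle. Of 6 named hepatocyte markers 1, TTR, reached it, and the list averaged 3.42 to 3.52 with osimertinib, 3.41 to 3.53 with cisplatin and 3.39 to 3.53 with vehicle. Of 2 named lymphocyte markers 1, NKG7, reached it, at averages of 3.79 to 3.99 with osimertinib, 3.82 to 3.99 with cisplatin and 3.63 to 3.81 with vehicle. None of AZU1, TTR and NKG7 was called, against 30.6% of all genes with osimertinib and 31.0% with cisplatin, which says little for so few genes. NKG7 lay 0.30 above vehicle with osimertinib (adjusted p = 0.0999) and 0.35 with cisplatin (adjusted p = 0.0527, limma), and its drug and vehicle arrays did not overlap. No marker was listed at 0, and the lowest value of any row was 0.65. The part of these lists in the AQP9 value was not tested.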

How the data were processed

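Total RNA of 9 THP-1 cultures was measured on 1 Affymetrix Human Gene 2.0 ST array each. Per the labels, the array service summarized the scans per gene, and the submitters' processing notes name Affymetrix Power Tools. The deposited values were taken as log2 from their range of 0.65 to 13.17, since no label states the log base, and another base would change every fold. Array medians were 3.29 to 3.37, so a shift shared by most transcripts cannot be seen.

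Of 53617 rows the platform annotation named 16098 with 1 gene, 0 with several and left 37519 unnamed. Identifiers of all 16098 were found in RefSeq (GRCh38.p14). They gave 14884 genes, by the row with the highest mean, and the brighter 7442, with a mean level of at least 4.28 (the median over genes), went into limma 3.58.1 in R 4.3.3: 3 group means over 9 arrays, trend and robust empirical Bayes, two-sided, Benjamini-Hochberg over 7442 genes, called under 0.05. The fit was tested on simulated data.

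AQP9 and the gene lists were chosen with earlier results of these data known, and the motifs after the values were seen. The text names up to 8 called members of each list by the smallest F test p, the 8 tested genes that correlate best with AQP9, the 5 nearest by Euclidean distance, and 2 neighbours with a row on each side. The 15 alternatives were a further quantile normalization, median centring, no level filter, no trend and robust fitting, the replicate number as a block, the mean over all rows of a gene, and each of 9 arrays left out.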

Additional observations from a re-analysis of the deposited data

How the results depend on the processing

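AQP9 stood above vehicle under all 15 alternatives, at 2.61 to 2.78 log2 units with osimertinib and 2.52 to 2.76 with cisplatin. Its rank of 2 by signed difference was kept in both comparisons under each alternative. AQP9 was picked for these differences on the same arrays, so nothing is read from their being kept. Leaving out 1 array in turn gave 2.61 to 2.77 with osimertinib, 2.52 to 2.76 with cisplatin, and -0.04 to 0.16 between the drugs, where the value turned to -0.040 without cisplatin replicate 1. The other alternatives gave 0.07 to 0.11 between the drugs, and AQP9 was not called there under any (adjusted p of 0.722 to 0.949). Of the 38 list members, 10 to 16 were called with osimertinib and 9 to 13 with cisplatin on leaving out 1 array, while 1828 to 2497 of all 7442 genes were called with osimertinib and 1813 to 2269 with cisplatin. Between the drugs 0 to 1 were called in those fits, AQP3 without cisplatin replicate 1 and PNPLA3 without cisplatin replicate 2, and quantile normalization on top called 1, PNPLA3 (adjusted p = 0.0262). PNPLA3 with cisplatin lay on both sides of 0 on leaving out 1 array, from -0.073 to 0.078. Over all 7442 genes the calls between the drugs numbered 130, against 218 with quantile normalization, 85 with median centring, 76 without the level filter, 63 without trend and robust fitting and 54 to 147 on leaving out 1 array. Of 26 calls of single list members, 18 were kept under every alternative. The replicate numbers of the labels were not treated as pairs: deviations of same-numbered arrays correlated at -0.23 to 0.13, and 2 of 9 arrays correlated best with an array of their own number. With the replicate number as a block, the AQP9 differences stayed at 2.72, 2.63 and 0.09 (adjusted p = 0.837 between the drugs), and the members called were 12 with osimertinib, 10 with cisplatin and 0 between the drugs, against 2145, 2155 and 108 of all 7442 genes. Arrays carry no read depth, detection was not measured here, and 3 arrays a group limit the precision.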

Other observations

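PNPLA3 and DGAT2, paired here after their values were seen, had differences of opposite sign between the drugs. PNPLA3 was at 5.74, 5.62 and 5.61 with osimertinib and 5.11, 5.41 and 5.20 with cisplatin, without overlap, at 1.34-fold higher with osimertinib (adjusted p = 0.0615 by limma). DGAT2 was at 5.51, 5.48 and 5.51 with osimertinib and 5.59, 5.94 and 5.87 with cisplatin, also without overlap, at 0.811-fold (adjusted p = 0.25). Neither was called, and 14.3% of all tested genes had osimertinib and cisplatin arrays that did not overlap. Other list members, among them CAT, PLIN2 and AQP12A, had such arrays too, so nothing is read from this pair.

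The deviations of FZD8 from its group means correlated with those of AQP9 at 0.82 over the 9 arrays, next to 0.84 for CTSZ and 0.07 for BPI among the genes named for likeness. These genes were picked on the same 9 arrays, so the values are a description only.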
